A study of Mus musculus with 6 samples.

Results

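Open chromatin around the 4 genes of the FGF receptor family (Fgfr1, Fgfr2, Fgfr3 and Fgfr4) was examined in mouse urothelium after loss of Stag2. The members were all distinct open intervals that overlapped the span of one of these genes widened by 50 kb on each side. They numbered 765 of 1094985 intervals over the 6 libraries. Merged where they overlapped by at least 1 bp, they formed 227 of 340414 regions: 63 at Fgfr1, 77 at Fgfr2, 46 at Fgfr3 and 41 at Fgfr4.

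The libraries came from 3 Stag2-KO and 3 Stag2-WT samples, profiled by ATAC-seq, where a transposase cuts and tags DNA that is open. Mice of both genotypes received TMX in the diet for 1 week, and cells were taken 1 week after that treatment began. Cells of peeled urothelium, the lining of the bladder, were sorted as GFP-positive and DAPI-negative, and all libraries carried the same batch label. The labels give neither the promoter that drives the recombination or the GFP nor the number of animals behind a library, so p-values measure only the spread between these libraries. The product of Stag2 is part of cohesin, which forms loops of chromatin.

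FGF receptors are tyrosine kinases of the cell surface that bind fibroblast growth factors together with heparan sulfate or a klotho protein and signal through the adaptor FRS2 to the RAS-ERK pathway. In epithelia, splicing of FGFR1 to FGFR3 favours isoforms that bind ligands made by the neighbouring mesenchyme, such as FGF7 and FGF10 for FGFR2. FGFR3 carries activating mutations in many low-grade bladder cancers of humans, a tumour type in which STAG2 is also often lost.

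The sequences just before the gene starts are shown because they differ in whether they lay inside an open interval. The table of RefSeq promoters used here (GRCm38.p6) matched 3 of the 4 genes: Fgfr2, Fgfr3 and Fgfr4. Each line gives the 250 bases before the annotated start, 5′ to 3′ on the strand of the gene. Capitals mark matches, on either strand, to the GC box GGGCGG, the CCAAT box CCAAT, the TATA box TATAAA, the CHR element TTTGAA or the AP-1 motif TGANTCA.

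Fgfr3 (chr5:33721474-33721723, plus strand): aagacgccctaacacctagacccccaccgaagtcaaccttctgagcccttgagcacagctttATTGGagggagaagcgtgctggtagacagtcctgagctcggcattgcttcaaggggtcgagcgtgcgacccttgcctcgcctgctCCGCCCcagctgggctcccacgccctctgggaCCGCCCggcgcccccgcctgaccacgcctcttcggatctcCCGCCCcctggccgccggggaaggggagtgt
Fgfr4 (chr13:55152568-55152817, plus strand): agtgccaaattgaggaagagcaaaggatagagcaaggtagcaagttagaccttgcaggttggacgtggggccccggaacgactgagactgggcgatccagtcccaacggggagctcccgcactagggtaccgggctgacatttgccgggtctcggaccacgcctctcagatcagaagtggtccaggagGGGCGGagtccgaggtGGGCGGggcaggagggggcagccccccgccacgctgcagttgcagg
Fgfr2 (chr7:130266809-130267058, minus strand): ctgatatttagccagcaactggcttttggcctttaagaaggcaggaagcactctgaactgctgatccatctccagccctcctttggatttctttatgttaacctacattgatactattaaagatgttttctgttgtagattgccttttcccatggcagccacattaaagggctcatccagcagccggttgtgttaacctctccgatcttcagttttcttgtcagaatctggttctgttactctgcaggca

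The Fgfr3 window held 3 GC boxes, at positions -103, -71 and -31 before the start, and 1 CCAAT box at -188, each position being the leftmost base of the match. The Fgfr4 window held 2 GC boxes, at -62 and -46, and the Fgfr2 window held no match to any of the 5 motifs. Of 32817 such windows in the table, 32.7% held a GC box, 33.8% a CCAAT box, 12.4% a TATA box, 16.0% a CHR element and 6.75% an AP-1 motif. No match overlapped another. The GC content was 44.0% in Fgfr2, 66.8% in Fgfr3 and 64.0% in Fgfr4, against a median of 52.4%. The observed over expected CpG ratio was 0.167 in Fgfr2, 0.694 in Fgfr3 and 0.607 in Fgfr4, against a median of 0.373. A second annotated start of Fgfr3, downstream of the first, is preceded by a window with 72.8% GC that is not printed here.

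These windows differed in how they lay relative to the open intervals. The 250 bases before Fgfr3 were covered for 215, 214 and 118 bases in the KO libraries, against 250, 219 and 250 bases in the WT libraries. The 250 bases before Fgfr4 were covered for 227, 250 and 195 bases in KO, against 250, 242 and 28 bases in WT. The 250 bases before Fgfr2 were covered for 0 bases in all 6 libraries. The open region of that gene lay just inside the gene (chr7:130265705-130266684), with its centre 0.614 kb from the annotated start.

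Each list was ranked by the fold over the local background that the authors' peak caller gave to each interval, with rank 1 for the largest fold. Fold depends on depth and is therefore compared only within a list. For comparisons between libraries the best 100000 intervals of each list were used, and a region without one received the rank that follows the last. A log2 rank gain of 1 means a rank better by a factor of 2 in KO. The lists held 260462, 149153 and 177320 distinct intervals in KO, against 168561, 174275 and 165214 in WT. Depth, read as the smallest background coverage implied by fold and p, was 7.98, 5.89 and 6.88 in KO, against 7.59, 6.37 and 6.90 in WT. Gene ends made up 14.1%, 14.2% and 13.6% of the best 100000 intervals in KO, against 13.3%, 13.5% and 13.3% in WT. Of 17 urothelial marker genes, 11 had an interval within 500 bp of a gene end in all 6 rank lists, and the gene ends of Trp63 and Gata3 had none. Of 22 marker genes of immune cells, endothelium, fibroblasts and smooth muscle, 4 had an interval in all 6 lists (Pdgfra, Acta2, Cd68 and Csf1r), and 6 (Lum, Tagln, Cnn1, Emcn, Ptprc and Adgre1) had none in any. Of 14 urothelial markers tested, all KO ranks were better than all WT ranks in 6 (Upk1b, Upk3a, Krt7, Krt18, Foxa1 and Epcam), against 16.2% of all tested gene ends. Of the markers of other cells, 4 of fibroblasts, 2 of smooth muscle, 1 of endothelium and 4 of immune cells were tested. Among these, all KO ranks were better at Cd3e and worse at Col1a1 and Csf1r. All KO ranks were worse at 1.73% of all tested gene ends. Myh11 held rank 13638 and 12425 in WT replicates 1 and 3 and was in no other rank list, and Dcn was ranked in WT replicate 1 alone. Tie1, Pecam1 and Cdh5 were ranked in KO libraries alone, as were the urothelial markers Krt5 and Krt18. Kdr was ranked in every KO library and in WT replicate 2. No marker was called in the fit of all 6 libraries. Without KO replicate 3, Upk1b and the endothelial marker Kdr were called better in KO (limma adjusted p = 0.0232 and 0.0247). In that fit 4.73% of all tested gene ends were called better. The part of these marker differences in the FGF receptor results was not tested. In such bulk libraries, fewer cells of a type and less open DNA per cell cannot be told apart, and the peak lists do not show whether Stag2 was deleted.

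Across the series, the rank test (limma with Benjamini-Hochberg adjustment, threshold 0.05) called 12 of 100540 regions with a better rank in KO (0.0119%) and 9 with a worse rank (0.00895%). With a block on the replicate number the counts were 16 and 16. Without KO replicates 1, 2 and 3 in turn they were 1 and 0, 8 and 3, and 18 and 16 (0.0179% and 0.0159%). Without WT replicates 1, 2 and 3 they were 2 and 5, 3 and 5, and 0 and 2. At gene ends, 3 of 13306 were called with a better rank in KO (0.0225%) and 8 with a worse one (0.0601%). Those counts were 629 and 104 without KO replicate 3, 94 and 64 without WT replicate 2, and 0 and 0 without KO replicate 1. The gene-end counts moved most without KO replicate 3. The gain without it at the better-ranked end of each FGF receptor gene is given below. The median gain was 0.016 over all tested regions and 0.23 over all tested gene ends.

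None of the FGF receptor regions was called by limma, neither in the fit of all 6 libraries nor in any of the 14 alternatives. Of the 227 regions, 62 had an interval in the rank lists of at least 3 libraries and were tested; the other 165 were not. The smallest adjusted p was 0.266, and without KO replicate 3 it was 0.0585. An unadjusted p below 0.05 was found for 7 regions with a better rank in KO (6.96% of all tested regions had one) and for 5 with a worse rank (7.85%). The ranks of the 2 genotypes did not overlap in 17 of the 62 regions (27.4%), against 19.6% of all tested regions. In 11 of them all KO ranks were better (11.4% of all tested regions) and in 6 all were worse (8.17%). By gene, ranks did not overlap in 4 of 16 tested regions at Fgfr1, 7 of 20 at Fgfr2, 2 of 12 at Fgfr3 and 4 of 14 at Fgfr4. The gains of the 62 regions ran from -1.37 to 1.37 with a median of 0.12, and 35 were positive (51.5% of all tested regions were).

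The gene ends were taken first. Fgfr1, whose receptor in many tissues acts in the mesenchyme, had the best-ranked end of the 4 genes. Its lower end (gene 14182, chr8:25518759-25575718) lay in the region chr8:25518567-25519780, which also covers an end of the lncRNA gene Gm31288. The interval there held rank 24295, 22785 and 20976 in KO, against 23960, 29701 and 23109 in WT. The ranks of the genotypes overlapped, and the gain was 0.17 ± 0.30 (SE, n = 3 each, limma adjusted p = 0.832). It was 0.11 without KO replicate 3 and 0.055 without WT replicate 2.

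Fgfr2, the receptor whose epithelial isoform answers FGF7 and FGF10, had ranks that did not overlap at its start (gene 14183, chr7:130162451-130266808, minus strand). The interval held rank 37744, 42528 and 50294 in KO, against 58016, 66096 and 56574 in WT. All 3 KO libraries ranked it better than any WT library, as at 16.2% of all tested gene ends. The gain of 0.48 ± 0.22 (SE, n = 3 each) did not pass (limma adjusted p = 0.381), and it was 0.58 without KO replicate 3. A neighbouring region 69 bp further into the gene (chr7:130264923-130265635) held rank 34603, 42668 and 35715 in KO, against 46018, 53267 and 54875 in WT, again without overlap. The stop end of Fgfr2 had no interval within 500 bp in any library.

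Fgfr3, the receptor most often mutated in bladder cancer, had a broad region of 1979 bp over its start (gene 14184, chr5:33721724-33737068, plus strand). The best interval there held rank 67817, 73799 and 82298 in KO, against 76990, 89520 and 88223 in WT. The ranks overlapped, with a gain of 0.19 ± 0.19 (SE, n = 3 each, limma adjusted p = 0.680). The gain was 0.12 without KO replicate 1 and 0.26 without KO replicate 3. The region spanned both annotated starts of the gene. The stop end of Fgfr3 had no interval within 500 bp.

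Fgfr4, a receptor best known for bile acid control in liver with the coreceptor beta-klotho, had the widest spread between libraries (gene 14186, chr13:55152818-55168759, plus strand). The interval at its start held rank 48769, 33271 and 70060 in KO, against 92932, 48947 and 111552 in WT. The best WT library lay between KO replicates 1 and 3, so the groups overlapped. The gain was 0.67 ± 0.31 (SE, n = 3 each, limma adjusted p = 0.380), and it was 0.40 without KO replicate 2, 0.93 without KO replicate 3 and 0.99 without WT replicate 2. With the share of gene-end intervals added to the model, the gain was -0.61 (limma adjusted p = 0.873). That share was higher in every KO library than in any WT library. Gains with this term, here and below, therefore cannot tell the share and the genotype apart. The stop end had rank 80419, 85831 and 110553 in KO, against 88939, 120397 and no interval in WT. A second region near that end (chr13:55168128-55168277) was listed in KO replicate 1 only.

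**Figure D1:**
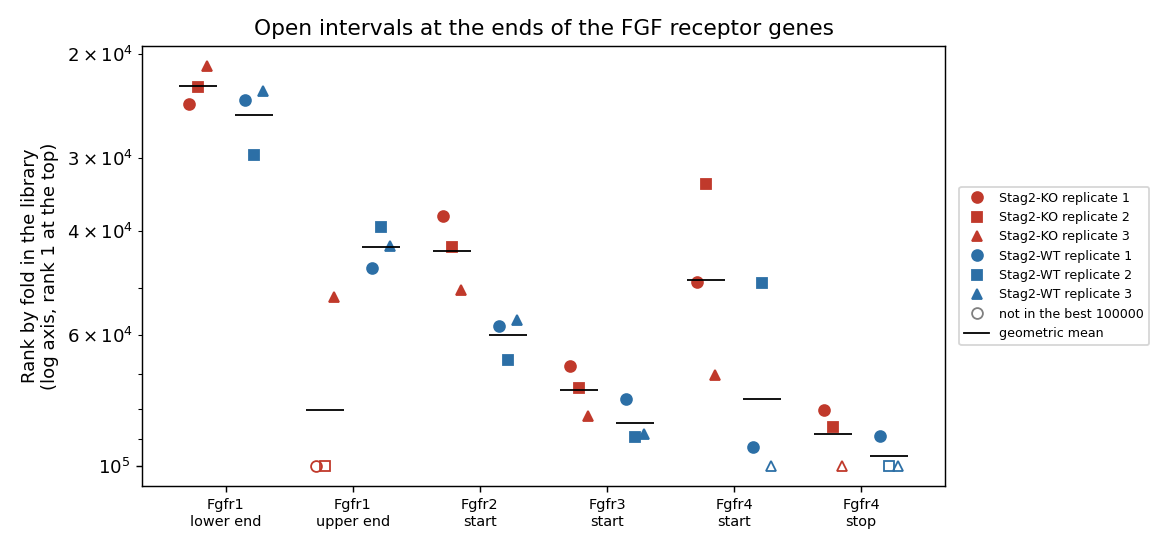
Rank by fold of the best interval within 500 bp of each gene end that had one (log axis, rank 1 at the top), for 3 Stag2-KO and 3 Stag2-WT libraries, with the geometric mean per genotype as a line and open symbols for libraries without an interval among the best 100000. The groups are apart at the Fgfr2 start and at the Fgfr1 upper end, in opposite directions.

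The order of the 4 ends by geometric mean rank was the same in both genotypes: Fgfr1 (22645 in KO, 25430 in WT), Fgfr2 (43220 and 60087), Fgfr4 (48443 and 76907) and Fgfr3 (74403 and 84719). The SD of the log2 rank was 0.11, 0.21, 0.54 and 0.14 in KO for these genes in that order, against 0.20, 0.12, 0.57 and 0.12 in WT. Fgfr1 ranked better than the other 3 in every library. Fgfr2 and Fgfr4 overlapped in both genotypes, as did Fgfr4 and Fgfr3. The order depends on the measure. Ranked by the peak caller's p, the Fgfr2 start held rank 14127, 9051 and 21983 in KO, against 26048, 22329 and 23644 in WT. The Fgfr1 lower end held p rank 19242, 13244 and 17550 in KO, against 17319, 17374 and 18651 in WT, so those 2 genes overlapped in KO. Set against the median gain of 0.23 over all gene ends, Fgfr1 and Fgfr3 lay below it and Fgfr2 and Fgfr4 above it.

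Patterns over the 6 libraries were most like those of other gene ends as follows, with Pearson's r of the -log2 rank as a description over 11964 candidate ends. For Fgfr1 these were Mlkl (r = 0.987) and Smim6 (0.983), for Fgfr2 Hoxb5 (0.994) and Ctnna1 (0.992), and for Fgfr3 Tbc1d9b (0.997) and Smim15 (0.996). All points share the same libraries and their depth, and r was above 0.9 for 34 ends with Fgfr1, 876 with Fgfr2 and 911 with Fgfr3. Fgfr4 was not compared because WT replicate 3 had no interval among its best 100000.

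The upper end of Fgfr1 had gains of the opposite sign to the starts. The region chr8:25575926-25576467, 208 bp beyond that end, was missing from the whole list of KO replicate 1 and held rank 119335 and 51807 in KO replicates 2 and 3, against 46253, 39299 and 42451 in WT. The gain was -0.92 ± 0.30 (SE, n = 3 each, limma adjusted p = 0.271), and -1.23 without KO replicate 3 (limma adjusted p = 0.0585). A second region just inside the gene (chr8:25574948-25575419) held rank 124038, 112747 and 89007 in KO, against 75722, 63130 and 68578 in WT, with a gain of -0.48 ± 0.16. Both regions ranked worse in every KO library than in any WT library. With the gene-end share in the model, the gain of the first was 0.049. Neither region was called.

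Inside the genes, Fgfr2 held the largest number of open regions: 44 of the 89 internal regions of the family and 13 of the 19 that were tested. The span of Fgfr2 is 104358 bp, against 56960 bp for Fgfr1, 15345 bp for Fgfr3 and 15942 bp for Fgfr4, and the annotation used gives no exons. Several Fgfr2 regions ranked among the better intervals of the libraries. The region chr7:130219894-130220363, 46.7 kb into the gene, held rank 9581, 11682 and 13778 in KO, against 26180, 22255 and 25871 in WT. All KO ranks were better than all WT ranks, with a gain of 1.10 ± 0.36 (SE, n = 3 each, limma adjusted p = 0.271).

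A further 2 Fgfr2 regions, named after their values were seen, had the same separation. The region chr7:130213034-130213672, 53.5 kb into the gene, held rank 8352, 8740 and 13532 in KO, against 36781, 20805 and 18519 in WT, and the gain was 1.28 ± 0.42 (SE, n = 3 each, limma adjusted p = 0.271). The region chr7:130246447-130247280, 19.9 kb into the gene, held rank 25420, 20506 and 26252 in KO, against 45175, 35121 and 44541 in WT, and the gain was 0.79 ± 0.31 (limma adjusted p = 0.299). With the gene-end share in the model these gains were 0.50 and 0.40. Other internal regions did not share the direction. At chr7:130231260-130231553 KO replicates 1 and 2 had no interval in their whole lists and KO replicate 3 held rank 71159, against 51722, 81502 and 49295 in WT. Its gain was -0.59 ± 0.25 (limma adjusted p = 0.313). The adjacent region (chr7:130231600-130231961), which was not tested, held rank 83857, 88206 and 164387 in KO. In WT it held rank 112384 and 134359 in replicates 2 and 3, with no interval in replicate 1. Of the 13 tested internal regions of Fgfr2, 7 had a positive and 6 a negative gain.

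**Figure D2:**
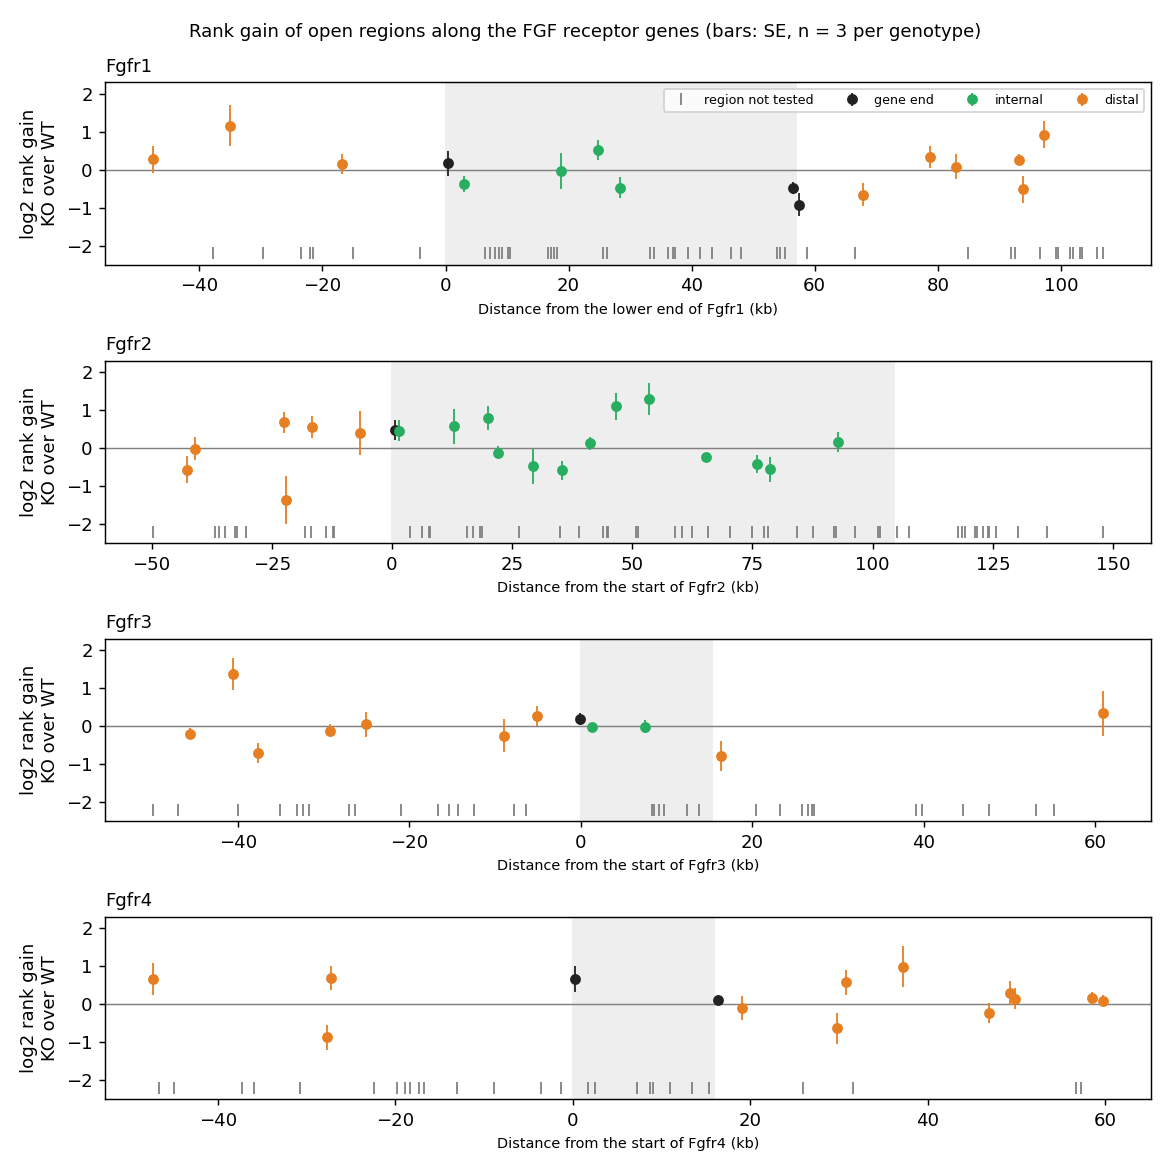
Log2 rank gain (KO over WT, bars are SE, n = 3 per genotype) of each tested region against the distance of its centre from the gene start or, for Fgfr1, the lower end, in kb; the shaded part is the gene span, and ticks mark the 165 untested regions. Gains run from -1.37 to 1.37, positive and negative ones occur around all 4 genes, and none was called.

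The best-ranked internal region of Fgfr1 (chr8:25537199-25537859) differed more between libraries of a genotype than between genotypes. It held rank 20016, 18789 and 45288 in KO, against 17725, 20304 and 44867 in WT. Replicate 3 of each genotype was the lower-ranked one, and the gain was -0.026 ± 0.47 (SE, n = 3 each). In Fgfr2 the best-ranked internal regions by the rule also included chr7:130253827-130254148, with rank 13313, 8901 and 16803 in KO, against 29709, 11794 and 18423 in WT, where the groups overlapped. Fgfr3 had 8 internal regions, of which 2 were tested, with gains of -0.030 and -0.015. Fgfr4 had 7 internal regions, and none had an interval in enough rank lists to be tested.

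Outside the gene spans lay 130 regions, 36 of them tested, with 22 positive and 14 negative gains. The strongest by p lay 20.5 kb beyond the stop end of Fgfr4 (chr13:55189268-55190795), with no annotated gene end within 500 bp. Its p rank was 250, 201 and 843 in KO, against 725, 396 and 1034 in WT, and its rank by fold was 3426, 6489 and 7201 in KO, against 6382, 12780 and 15443 in WT. The groups overlapped by fold because WT replicate 1 lay between KO replicates 1 and 2. The gain was 0.99 ± 0.53 (SE, n = 3 each, limma adjusted p = 0.392), or 0.66 without KO replicate 1.

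Near Fgfr3, 2 distal regions had the smallest p in each direction. The region chr5:33681042-33681352, 40.4 kb before the gene, held rank 33992, 16139 and 52836 in KO, against 130480, 60733 and 82430 in WT. Its gain of 1.37 ± 0.42 (SE, n = 3 each, limma adjusted p = 0.266) was the largest positive one of the 62 tested regions, and it was 0.91 without KO replicate 2. Adding the gene-end share to the model gave -0.30. The region chr5:33683847-33684315, 37.4 kb before the gene, held rank 82845, 61635 and 61355 in KO, against 45477, 41858 and 37779 in WT, and the gain was -0.71 ± 0.26 (limma adjusted p = 0.288). In both regions the genotypes did not overlap, and their directions were opposite. Closer to the gene, the region chr5:33712542-33713013, 8.71 kb before the start, held rank 21266, 22556 and 11030 in KO, against 13313, 20451 and 11609 in WT. The region chr5:33737809-33738389, 741 bp beyond the stop end, held rank 68154, 34668 and 30846 in KO, against 34619, 20820 and 19641 in WT, and the gain was -0.79 ± 0.40 with overlapping groups. Adding the gene-end share to the model gave -0.40, and leaving out KO replicate 1 gave -0.43. At the far edge of the window, the end of Letm1, a gene of a mitochondrial membrane protein (chr5:33782060-33783148), held rank 4546, 10778 and 3498 in KO, against 4996, 12200 and 5698 in WT.

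At Fgfr1, 2 distal regions stood out by rank. The region chr8:25483311-25484036, 34.7 kb below the gene at an end of the lncRNA gene Gm31045, held rank 6181, 6214 and 24199 in KO, against 25088, 19258 and 21673 in WT. KO replicates 1 and 2 were above all WT libraries and KO replicate 3 lay among them, with a gain of 1.16 ± 0.54 (SE, n = 3 each, limma adjusted p = 0.347) and 1.82 without KO replicate 3 (limma adjusted p = 0.0641). The region chr8:25615842-25616149, inside Nsd3, a gene of a histone methyltransferase, held rank 16655, 20017 and 30129 in KO, against 46196, 33248 and 44853 in WT. There all KO ranks were better, with a gain of 0.93 ± 0.35 (limma adjusted p = 0.290). Another well-ranked region (chr8:25470969-25471414, inside Gm31045) held rank 23340, 14561 and 19813 in KO, against 23980, 21350 and 23417 in WT.

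Upstream of Fgfr2, inside the lncRNA gene Gm33555, the best-ranked distal regions had overlapping groups. The region chr7:130273201-130273765, 6.39 kb before the start, held rank 9255, 4247 and 15925 in KO, against 16654, 6830 and 12357 in WT. The region chr7:130288594-130289060, 21.8 kb before the start, held rank 28343, 38450 and 10235 in KO, against 4577, 20082 and 7013 in WT. KO replicate 3 lay within the range of the WT libraries there, and the gain was -1.37 ± 0.64 (SE, n = 3 each, limma adjusted p = 0.347), or -0.91 without WT replicate 1. The next region, 47 bp away (chr7:130289108-130289573), held rank 34901, 36148 and 57240 in KO, against 65373, 60964 and 73429 in WT, and the gain was 0.67 ± 0.28 in the other direction, or -0.11 with the gene-end share in the model. This region was named after its values were seen.

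Around Fgfr4, 2 regions inside Zfp346, a zinc finger gene, also differed in direction. The region chr13:55124955-55125281 held rank 43368, 43820 and 42974 in KO, against 32592, 17533 and 23776 in WT, and the gain was -0.86 ± 0.33 (SE, n = 3 each, limma adjusted p = 0.295). The next region, 41 bp away (chr13:55125323-55125744), held rank 37733, 42301 and 54082 in KO, against 118142, 48392 and 75527 in WT, and the gain was 0.69 ± 0.31 (limma adjusted p = 0.336), or 0.45 without WT replicate 1. The first did not overlap between genotypes and the second did. On the far side of Fgfr4, chr13:55182220-55182974 held rank 23625, 31710 and 24790 in KO, against 9807, 25592 and 19829 in WT. The end of Zfp346 (chr13:55105118-55105844) held rank 13398, 12024 and 6372 in KO, against 14324, 16970 and 16835 in WT, without overlap and with a gain of 0.67 ± 0.43 (limma adjusted p = 0.458), or 0.33 without KO replicate 3.

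**Figure D3:**
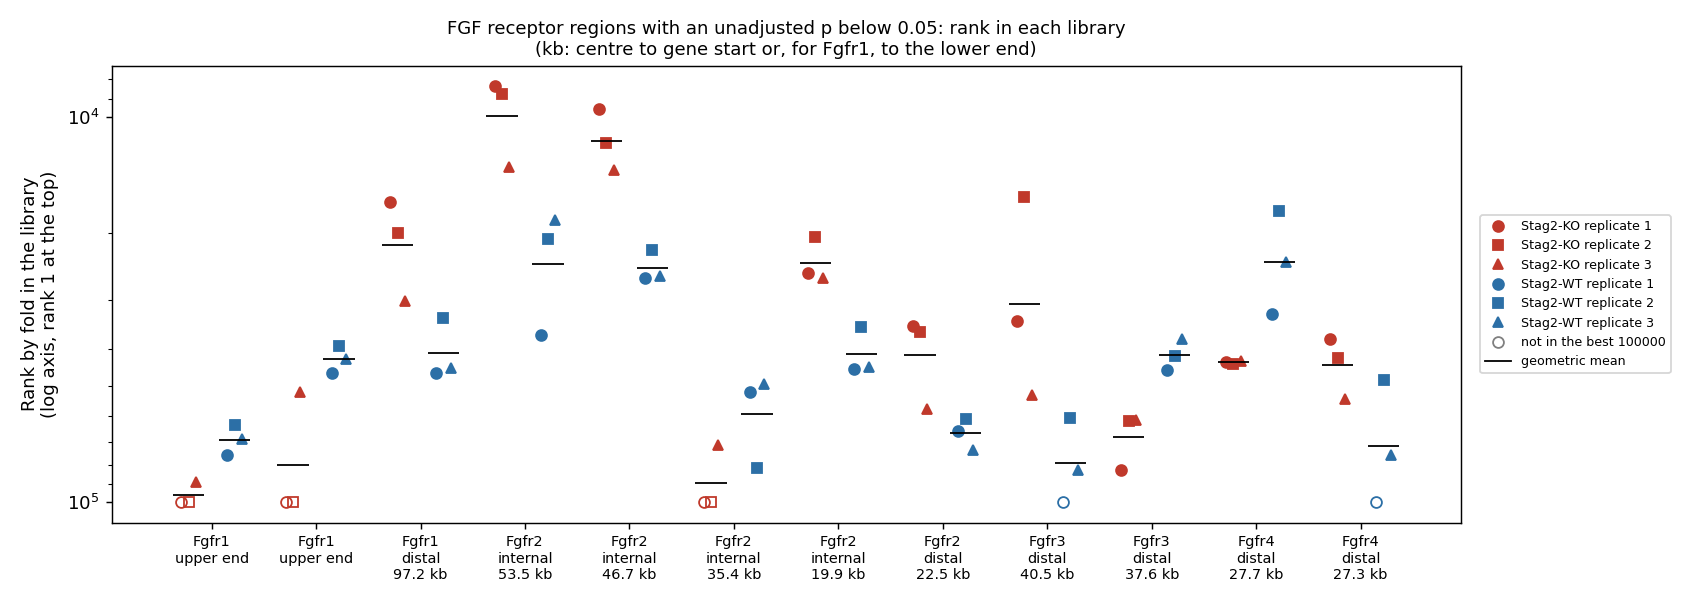
Rank by fold in each library (log axis, rank 1 at the top) of the 12 FGF receptor regions with an unadjusted limma p below 0.05, Stag2-KO left of Stag2-WT, with the geometric mean as a line and open symbols for libraries without an interval among the best 100000. The gain was positive in 7 regions and negative in 5.

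All-or-none regions were looked for in the whole lists. At the 4 genes, 2 regions had an interval in all 3 WT lists and in no KO list, both inside Fgfr2 (0.933% of all regions had this pattern). They were chr7:130249898-130250134, with rank 152192, 148521 and 147944 in WT, and chr7:130260414-130260592, with rank 157231, 144489 and 147630 in WT. Both were weak, beyond the best 100000 intervals, with a fold of 2.15 to 3.15. No region had the reverse pattern, which 0.496% of all regions showed. Of the 227 regions, 71 (31.3%) had an interval in all 6 lists and 93 (41.0%) in 1 list only, against 29.3% and 43.9% of all regions.

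The number of intervals per library did not separate the genotypes in the whole lists. At Fgfr1 there were 47, 26 and 40 intervals in KO, against 36, 33 and 30 in WT. At Fgfr2 there were 47, 33 and 46 in KO, against 47, 45 and 40 in WT. At Fgfr3 there were 38, 22 and 21 in KO, against 24, 25 and 15 in WT, and at Fgfr4 there were 37, 18 and 27 in KO, against 24, 22 and 22 in WT. KO replicates 1 and 2, with the longest and the shortest list, held the most and the fewest of the KO libraries at Fgfr1, Fgfr2 and Fgfr4. Two-sided exact permutation tests gave p = 0.6 for Fgfr1, 0.9 for Fgfr2, 0.6 for Fgfr3 and 0.6 for Fgfr4, where 3 against 3 allow no p below 0.1. Among the best 100000 intervals, Fgfr2 had 18, 18 and 19 in KO, against 22, 20 and 24 in WT (exact permutation p = 0.1, or 0.4 adjusted over the 4 genes).

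The other genes of the pathway were examined at their gene ends, in lists chosen with earlier results of these data known. For each gene the better-ranked end was used, which need not be its start. Of 79 genes, 70 were tested and 0 were called (limma), with 10 better and 1 worse in KO at an unadjusted p below 0.05, against 11.2% and 1.96% of all gene ends. Of the 70, 52 had a positive gain (70.3% of all gene ends did), and the median was 0.24, against 0.23 for all gene ends. In 14 of the 70, all KO ranks were better than all WT ranks (16.2% of all gene ends), and in 1 all were worse (1.73%). Without KO replicate 3, where 629 gene ends were called better (4.73%) and 104 worse (0.782%), 4 of the 70 were called: Fgf17, Frs2, Nras and Elk4.

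Of 18 FGF ligand genes, 13 were tested, with 10 positive and 3 negative gains and a median of 0.23. Fgf17 had the smallest p, with rank 33437, 30723 and 51887 in KO, against 96824, 58176 and 64888 in WT, and a gain of 0.93 ± 0.27 (SE, n = 3 each, limma adjusted p = 0.307). Fgf2 had the smallest p among negative gains, at -0.17 ± 0.24. The mesenchymal ligand gene Fgf10 had an interval in the rank list of KO replicate 1 only. Among 11 genes of coreceptors, the decoy receptor and other FGF binding proteins, 9 were tested with a median of 0.37. Flrt1, a membrane protein that binds FGF receptors, had a gain of 0.56 ± 0.23 and Klb, which encodes beta-klotho, one of -0.0020 ± 0.18.

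All 24 adaptor and signal transducer genes had an interval in the 6 rank lists, with a median gain of 0.28. Frs2, the docking protein of the receptors, held rank 25762, 32113 and 60482 in KO, against 87568, 54613 and 73619 in WT, and the gain was 0.94 ± 0.31 (SE, n = 3 each, limma adjusted p = 0.328). Akt1, a kinase of survival signalling, held rank 52557, 32565 and 29495 in KO at its lower end, against 22959, 25582 and 17274 in WT. The gain there was -0.77 ± 0.32. KO ranks were all worse than WT ranks at Akt1. Of 12 feedback inhibitor genes, 11 were tested with a median of 0.042. Dusp4, an ERK phosphatase, had a gain of 0.38 ± 0.21 and the ubiquitin ligase gene Cbl one of -0.60 ± 0.53. Those 2 had the smallest p in each direction.

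Of the 10 ERK target transcription factor genes, all tested, 6 had a positive and 4 a negative gain, with a median of 0.18. Elk4 held rank 47518, 48586 and 65256 in KO, against 81319, 85223 and 98895 in WT, and the gain was 0.73 ± 0.21 (SE, n = 3 each, limma adjusted p = 0.307), and Etv5 had a gain of -0.30 ± 0.56. Of the 4 regulators of FGF receptor splicing, 3 were tested. Esrp2, an epithelial splicing factor, held rank 48884, 57890 and 71108 in KO, against 74129, 85630 and 73157 in WT, and the gain was 0.40 ± 0.21 (limma adjusted p = 0.412).

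**Figure D4:**
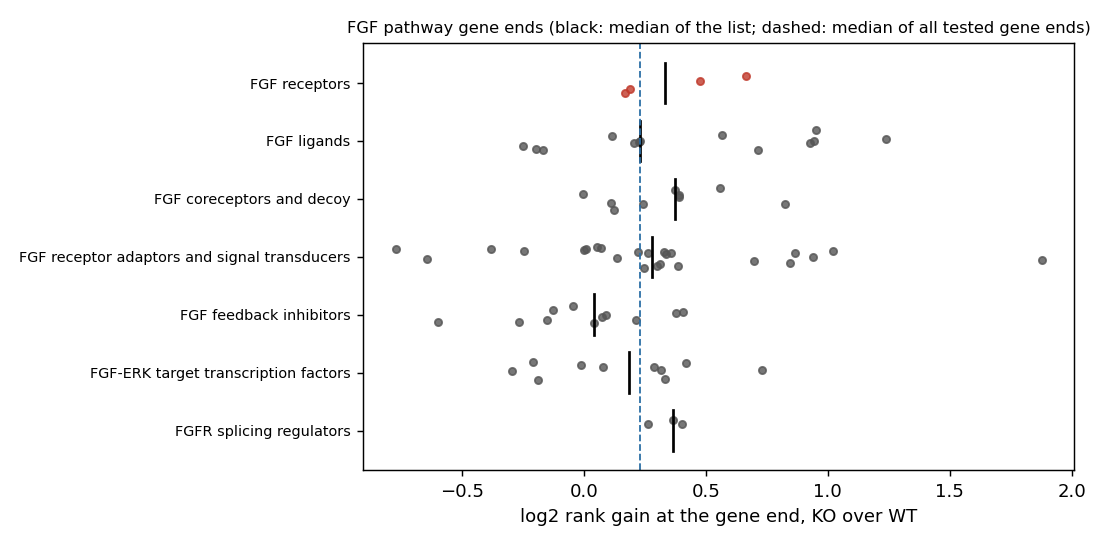
Log2 rank gain (KO over WT) at the gene end of each tested gene, by list, with the list median as a black line and the median of all tested gene ends (0.23) dashed. List medians run from 0.042 for feedback inhibitors to 0.37 for coreceptors, and no gene was called.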

How the data were processed

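ATAC-seq peak lists of 3 Stag2-KO and 3 Stag2-WT libraries were used, 1 list per library. The authors deposited for each peak a fold (ratio) over the local background, a -log10 p and -log10 q, a display score and a summit offset. Coordinates are in mm10, and DiffBind is named, per the submitters' processing notes. For the aligner and the peak caller: not given in the sources used here. Peaks of one interval with several summits were joined, keeping the largest fold. Regions are the union of the intervals of all 6 lists, merged at an overlap of 1 bp or more. Gene spans came from RefSeq GRCm38.p6, whose coordinates are those of mm10.

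The -log2 rank by fold within the best 100000 intervals was tested with limma 3.58.1 in R 4.3.3, with a trend and Benjamini-Hochberg adjustment over all regions, or all gene ends, with an interval in at least 3 libraries. A gene end is a window of 500 bp to each side, and the end with the better mean rank over the 6 libraries was used. Ranks compare order and not absolute openness, and read counts were not used. Scripts ran in Python 3.11.15 with SciPy 1.17.1 and were tested on simulated data.

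The members and gene lists were chosen with earlier results of these data known. The regions named are those at a member's ends, the 3 others of best mean rank and the smallest p in each direction per gene, and all-or-none regions. Other regions, at 130213034, 130231600, 130246447, 130264923, 130289108, 33722626 and 55183349, were named after their values were seen. Of each list, the gene with the smallest p in each direction is named. The deviations of same-numbered KO and WT libraries from their group means had correlations of 0.105, 0.557 and 0.401, so a fit with the replicate number as a block was also made. Differently numbered pairs ran from -0.513 to 0.318. The highest of them, KO replicate 3 with WT replicate 1, lay above the 0.105 of replicate 1, so that number is weakly paired. The other alternatives were ranking by p, a list of 50000, a q filter, a 50% overlap, windows of 1000 bp, no filter, linear ranks, a term for the gene-end share, and leaving out each library.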

Additional observations from a re-analysis of the deposited data

How the results depend on the processing

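The FGF receptor regions gave 0 calls in all 14 alternatives. Over the whole series, regions called better and worse in KO numbered 31 and 21 when ranked by p, 2 and 2 in a list of 50000, 0 and 1 without the filter, 0 and 0 with a term for the gene-end share, and 0 to 18 and 0 to 16 when a library was left out; 45 were worse at a 50% overlap. With the replicate block 16 regions were better and 16 worse, and 3 gene ends were better and 6 worse; no FGF receptor region or gene end was called with it. Gene ends called better and worse numbered 1 and 3 in a list of 50000, 0 and 1 with that term, and 0 to 629 and 0 to 104 when a library was left out; 5 were worse by p, 5 in windows of 1000 bp and 4 without the filter. All KO ranks were better in 6 FGF receptor regions in a list of 50000, against 11, and worse in 4, against 6. Fewer regions of the series were tested in that list (51842, against 100540). The share of all regions without overlap in it was not computed. KO minus WT interval counts were -0.333 at Fgfr1 and -1 at Fgfr3 among the best 100000, and ran from 0 to 10.5 at Fgfr1, -4.5 to 2.5 at Fgfr2, 0.167 to 8.67 at Fgfr3 and -0.167 to 9.33 at Fgfr4 when a library was left out.

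Of 358 comparisons of 26 named tested regions with an alternative, 17 reversed and 0 were called. With the term for the gene-end share, which differs between the genotypes, the gain was -0.61 at the Fgfr4 start (55152526), -0.034 at 25470969, -1.02 at 25483311, 0.049 at 25575926, 0.14 at 130231260, -0.53 at 130253827, -1.62 at 130273201, 1.08 at 130288594, -0.30 at 33681042, 1.05 at 33712542 and -0.12 at 55168931. At 25537199 it was 0.019 by p and -0.44 to 0.38 when a library was left out. Leaving out a library gave -0.12 to 0.84 at 130273201 and -0.058 to 0.82 at 33782060. The cause was not tested. With 3 libraries per genotype no exact test can go below 0.1.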

Other observations

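Neighbouring regions were compared within each library, a comparison chosen after seeing the data. Of 8 pairs of tested regions under 500 bp apart at the 4 genes, 3 had differences of -log2 rank (first minus second region) that did not overlap between genotypes, against 18.2% of 7013 such pairs over the series. In the Zfp346 pair near Fgfr4, 41 bp apart, the difference was -0.20, -0.051 and 0.33 in KO, against 1.62, 1.46 and 1.67 in WT. Its mean was 0.027 ± 0.27 in KO and 1.58 ± 0.11 in WT (SD, n = 3 each, two-sided exact permutation p = 0.1, the smallest possible, and 0.267 adjusted over the 8 pairs). In the pair starting at 55182220 and 55183349, 374 bp apart, the mean was 0.18 ± 0.090 in KO and 1.39 ± 0.58 in WT (SD, n = 3 each, exact permutation p = 0.1, or 0.267 adjusted). In the Fgfr3 pair starting at 33720607 and 33722626, 40 bp apart, it was 0.39 ± 0.15 in KO and 0.17 ± 0.038 in WT (SD, n = 3 each, exact permutation p = 0.1, or 0.267 adjusted). The region at 33722626 had no interval in the rank lists of KO replicates 1 and 3 and WT replicate 2. Its whole-list ranks there were 130678, 116777 and 120042. Those differences used the rank for missing regions and are lower bounds. In the whole lists the 2 regions held rank 89520 and 120042 in WT replicate 2, against 73799 and 92170 in KO replicate 2. On these ranks the difference was larger in WT replicate 2 than in KO replicate 2, so the genotypes overlapped. The separation of this pair, its p and its place among the 3 pairs therefore depend on the rank for missing regions. The second Zfp346 region was also missing from the rank list of WT replicate 1, so 1.62 is a lower bound.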
